A study of Mus musculus with 6 samples.

Results

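The genes described here are 10 genes known from Cajal-Retzius cells, measured in the dorsal forebrain of mouse embryos at E11.5. They are Trp73, Lhx1, Lhx5, Calb2, Ebf1, Ebf2, Ebf3, Cxcr4, Ndnf and Car10, of 17092 named genes that passed a filter on dim probes. The gene symbol column of the authors' table named 8 probes for 7 of them. Ebf1, Car10 and Ndnf (listed there under its older clone name) and further probes of Trp73 and Lhx1, 5 probes in all, were found through the array's own symbol or the accession. All 10 genes passed the filter, and 12 of their 13 probes were well above background on all 6 arrays.

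RNA came from the dorsal forebrain of single embryos, 3 labelled control and 3 labelled mutant, from time-mated mice. The labels name neither the mutated gene nor a driver of the mutation nor a strain. The title of the series speaks of Wnt/beta-catenin signalling and the fate of cortical precursors. A control and a mutant came from each of 3 litters, so that control 1 and mutant 1 are of litter 1, and so on. Litter 1 was hybridised on slide 1, and litters 2 and 3 on slide 2. The share of spots well above background lay between 68.68% and 70.1% in controls and between 65.75% and 67.9% in mutants, and 0 spots were saturated. Levels are log2 signals of 1-colour arrays with the array's own 75th percentile set to 0, and differences are mutant minus control on that log2 scale. With 3 arrays a group, their number sets the precision, and levels of different probes are not comparable with each other.

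Cajal-Retzius cells are among the earliest neurons of the cortex. They settle beneath the pial surface, secrete reelin and guide the layering of later neurons. They arise at the borders of the pallium, chiefly in the cortical hem, the septum, the ventral pallium and the thalamic eminence, and spread from there over the cortical surface. Trp73, a relative of the tumour suppressor p53, the LIM-homeodomain factors Lhx1 and Lhx5 and the early B-cell factors Ebf1, Ebf2 and Ebf3 are transcription factors of these cells. Calb2 encodes the calcium-binding protein calretinin, Cxcr4 the receptor of the meningeal chemokine Cxcl12, Ndnf a secreted neurotrophic factor, and Car10 a carbonic anhydrase-related protein that binds neurexins.

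None of the 10 genes passed the test over all genes. Their adjusted p-values lay between 0.227 and 0.855 (limma with Benjamini-Hochberg adjustment over 21068 genes and unnamed probes, of which 0.0332% passed, 0.00949% as higher and 0.0237% as lower in mutants). At an unadjusted p under 0.05 stood 1 of the 10, Ebf3, against 16.9% of all rows in either direction and 9.5% as higher in mutants. That count was 0 of 10 with median centring, where Ebf3 was at 0.19, and 4 of 10 with normexp background correction (Lhx1, Ebf3, Ndnf and Car10). Over all 21068 rows the count was 3500 with median centring and 5966 with normexp, against 3569 in the fit above. The difference was positive for 9 of the 10 genes and negative for Ebf2, against 55.0% positive among all rows. The median difference of the 10 was 0.30, against 0.02 over all rows, and it was 0.18 without mutant 2 and 0.20 without control 3. More cells of a type and more RNA per cell cannot be told apart in such bulk samples. The differences ranged from -0.17 for Ebf2 to 0.98 for Car10, and the 95% interval held 0 for 9 of the 10. These intervals do not use the litters. With litter as a block, Calb2 and Lhx1 joined Ebf3 at an unadjusted p under 0.05 in limma, and none of the 10 passed. In that fit 4181 of the 21068 rows stood under 0.05, against 3569 without the block.

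**Figure D1:**
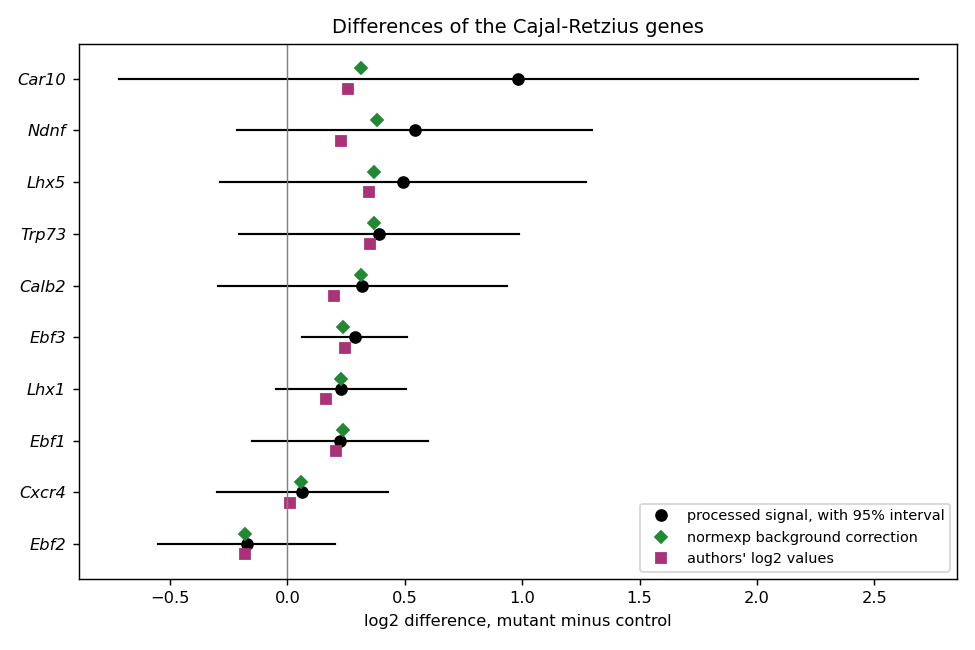
Log2 difference (mutant minus control) of the 10 genes, with 95% intervals from limma over 3 embryos per group (black), beside the differences from normexp background correction (green) and from the authors' log2 values (purple). The interval of Ebf3 lies above 0 (0.06 to 0.51), the intervals of the other 9 genes include 0, and that of Car10 is the widest.

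The levels of the Ebf genes are given first, because Ebf3 was the only one of the 10 genes whose groups did not overlap. Ebf3 read 0.56, 0.55 and 0.74 over controls 1 to 3, against 0.80, 0.92 and 0.99 over mutants 1 to 3. Each mutant thus lay above each control. The difference was 0.29 (SE 0.09, 95% interval 0.06 to 0.51), a 1.22-fold higher signal, with an unadjusted p of 0.0204 and an adjusted p of 0.227 (limma). With median centring the difference was 0.19 (unadjusted p = 0.186 in limma), and the unadjusted p lay between 0.0160 and 0.0735 when each embryo was left out in turn. Groups set apart in this direction were found in 13.0% of all rows, and in either direction in 24.9%. Within litters 1, 2 and 3 the difference of Ebf3 was 0.24, 0.37 and 0.25. Its probe lies on chromosome 7 in mm9, the build of the authors' probe positions, from 144385490 to 144385549 on the minus strand.

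The promoter of Ebf3 is shown because this was the gene whose groups did not overlap. It covers the 250 bases before the start of the gene in RefSeq (GRCm38.p6, minus strand, chr7:137314446-137314695, 80.0% G and C), 5′ to 3′, with a match to the core motif of the Ebf proteins in capitals:
Ebf3: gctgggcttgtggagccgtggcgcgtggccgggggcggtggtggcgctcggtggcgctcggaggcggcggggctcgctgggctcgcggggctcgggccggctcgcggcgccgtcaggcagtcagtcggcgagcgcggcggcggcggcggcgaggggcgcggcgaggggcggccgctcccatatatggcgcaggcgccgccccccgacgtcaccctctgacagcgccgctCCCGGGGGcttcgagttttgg
The motif searched was CCCNNGGG, a palindrome read on both strands, and the match begins 21 bases before the start. Such a match was found in 3 of the 9 promoters listed for 6 of the 10 genes (1 of Ebf3 and 2 of Car10), and in 11.8% of all 32851 promoters of the same length. The motif of the Tcf/Lef partners of beta-catenin, searched on both strands as CTTTG followed by a pair of letters that are each A or T, had 0 matches in the 9 promoters and was present in 14.8% of all. These matches describe letters in a window and are not binding sites. Lhx5, Calb2, Ebf2 and Ndnf were not among the promoters used.

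Ebf1 read -0.88, -1.05 and -1.41 over controls 1 to 3, against -1.01, -0.88 and -0.78 over mutants 1 to 3. The groups overlapped, with control 1 level with mutant 2 and control 3 the lowest of the 6 embryos. The difference was 0.22 (SE 0.15, 95% interval -0.15 to 0.60, limma, adjusted p = 0.498), and it was 0.08 without control 3. Ebf1 is also known from the subpallium, whose 9 measured marker genes (0 passed) had their lowest median in the same embryo. From the control mean this median was 1.14, 0.86 and -2.25 in controls 1, 2 and 3 and 1.41, 0.85 and 1.94 in mutants 1, 2 and 3. The part of the subpallial genes in the values of Ebf1 was not tested.

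Ebf2, the only member with a negative difference, read 0.37, 0.54 and 0.64 over controls 1 to 3, against 0.10, 0.62 and 0.30 over mutants 1 to 3. Mutants 1 and 3 lay below all controls, while mutant 2 lay within their range. The difference was -0.17 (SE 0.15, 95% interval -0.55 to 0.20, limma, adjusted p = 0.595), and it was -0.06 without mutant 1 and -0.31 without mutant 2. The 3 Ebf genes therefore did not share one direction, with values of 0.22, -0.17 and 0.29 for Ebf1, Ebf2 and Ebf3, of which none passed. Of the partners and relatives of the Ebf factors, 0 of 3 passed, and Zfp423, a zinc-finger protein that binds Ebf factors, had the smallest p (-0.25, SE 0.07, limma, adjusted p = 0.203).

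**Figure D2:**
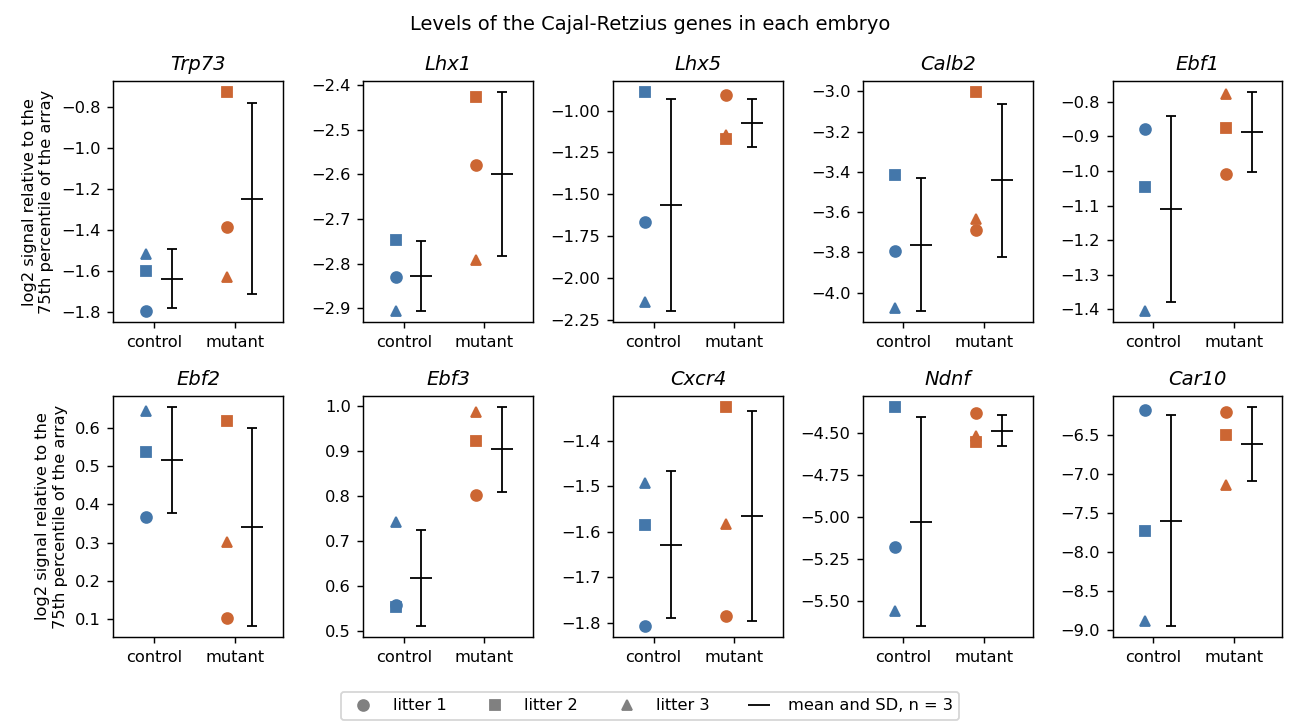
Level of each of the 10 genes (log2 signal relative to the 75th percentile of the array) in the 3 control embryos (blue) and 3 mutant embryos (orange), with litters as symbols and the mean and SD of each group in black. The groups are apart for Ebf3, where the mutants lie between 0.80 and 0.99 and the controls between 0.55 and 0.74, and overlap for the other 9 genes.

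Trp73 marks most Cajal-Retzius cells of the hem and septum, and the array holds 3 probes for it. The brightest probe read -1.80, -1.60 and -1.52 over controls 1 to 3, against -1.39, -0.73 and -1.63 over mutants 1 to 3. Mutants 1 and 2 lay above all controls, and mutant 3 lay within the control range. The difference was 0.39 (SE 0.24, 95% interval -0.20 to 0.99, limma, adjusted p = 0.458). Without mutant 2, the highest of the 6 embryos, it was 0.13. The second probe gave -3.62, -3.72 and -3.67 in the controls and -3.25, -3.34 and -3.71 in the mutants. The dimmest probe gave -5.94, -5.91 and -5.74 in the controls and -5.20, -5.06 and -5.75 in the mutants. All 3 probes thus placed mutants 1 and 2 above the controls and mutant 3 within their range. With every probe as its own row, the differences were 0.24 (SE 0.13) and 0.53 (SE 0.19) for the second and the dimmest probe, and neither passed (limma, adjusted p = 0.428 and 0.271). The probes lie on chromosome 4 in mm9, from 153430443 to 153430502 for the brightest, 153433043 to 153433102 for the second and 153433098 to 153433157 for the dimmest.

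RefSeq lists 2 starts for Trp73. The upstream start gives the full-length TAp73 protein, and the start inside the gene gives the shortened deltaNp73, the form known from Cajal-Retzius cells. The 250 bases before each are shown to let the starts be compared, since the levels above are not assigned to either form (GRCm38.p6, minus strand, chr4:154139876-154140125 upstream and chr4:154097174-154097423 inside the gene):
Trp73 upstream start: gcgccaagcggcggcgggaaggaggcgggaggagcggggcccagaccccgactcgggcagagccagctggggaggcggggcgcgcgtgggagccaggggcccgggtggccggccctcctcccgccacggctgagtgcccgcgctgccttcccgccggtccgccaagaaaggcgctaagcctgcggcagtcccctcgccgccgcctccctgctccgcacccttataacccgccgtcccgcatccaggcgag
Trp73 internal start: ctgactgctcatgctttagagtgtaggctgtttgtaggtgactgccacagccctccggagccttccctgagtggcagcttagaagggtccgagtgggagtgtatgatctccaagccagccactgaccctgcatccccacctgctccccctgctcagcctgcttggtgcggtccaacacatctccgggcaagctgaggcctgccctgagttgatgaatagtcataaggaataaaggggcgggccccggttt
The upstream window held 77.2% G and C, and the internal one 58.4%, and neither held a match to the Ebf or Tcf/Lef motifs searched. Of the other p53 family genes, 0 of 2 passed. Trp53 was at -0.06 (SE 0.11) and Trp63 at 0.20 (SE 0.07) as differences.

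Lhx1 and Lhx5 are LIM-homeodomain factors that act with the cofactor Ldb1. Lhx1 read -2.83, -2.75 and -2.91 over controls 1 to 3, against -2.58, -2.43 and -2.79 over mutants 1 to 3. Mutants 1 and 2 lay above all controls and mutant 3 lay within their range, the order seen for Trp73. The difference was 0.23 (SE 0.11, 95% interval -0.05 to 0.51, limma, adjusted p = 0.370). With litter as a block the SE was 0.08 and the unadjusted p 0.0414 (limma, adjusted p = 0.235). A second Lhx1 probe, whose mm9 position spans 153 bases (chromosome 11, 84335442 to 84335594) where the other member probes span 60, gave 0.22 (SE 0.09, adjusted p = 0.317 with every probe as its own row in limma). On that probe mutant 2 and not mutant 3 lay within the control range, so that the embryo inside the range differed between the probes.

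Lhx5 read -1.67, -0.89 and -2.14 over controls 1 to 3, against -0.91, -1.17 and -1.15 over mutants 1 to 3. The 3 mutants all lay inside the wide range of the controls. The SD was 0.63 over controls and 0.14 over mutants, so that the difference of 0.49 (SE 0.32, 95% interval -0.29 to 1.27, limma, adjusted p = 0.474) was smaller than the control range of 1.25. It was 0.20 without control 3 and 0.83 without control 2. In mm9 the Lhx5 probe covers 120891144 to 120891203 of chromosome 5, and the brighter Lhx1 probe 84331888 to 84331947 of chromosome 11.

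Ndnf followed the same order. It read -5.18, -4.34 and -5.56 over controls 1 to 3, against -4.38, -4.55 and -4.52 over mutants 1 to 3. Again the mutants all lay inside the control range, with an SD of 0.62 over controls and 0.09 over mutants. The difference was 0.54 (SE 0.31, 95% interval -0.21 to 1.30, limma, adjusted p = 0.423), and it was 0.28 without control 3 and 0.88 without control 2. For both Lhx5 and Ndnf the litters disagreed: litters 1 and 3 gave 0.76 and 0.99 for Lhx5 and 0.79 and 1.04 for Ndnf, whereas litter 2 gave -0.28 and -0.21.

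Control 3, in which Lhx5 and Ndnf were lowest, also had the lowest median of the subpallial genes (-2.25 from the control mean). The hem genes were higher in control 3 (0.29) than in control 2 (-0.12), and the septal genes lower. The 7 measured septal genes had medians of -0.21, 0.68 and -0.32 from the control mean in controls 1, 2 and 3 and of 0.61, 0.51 and -0.18 in mutants 1, 2 and 3. For the 7 measured genes of the thalamic eminence and diencephalon the medians were -0.01, 0.10 and -0.17 in controls and 0.20, 0.23 and 0.28 in mutants, with control 3 at -0.01 over the 5 of them above background on all 6 arrays. Their part in the values of Lhx5 and Ndnf was not tested. Of 12 partners and relatives of Lhx1 and Lhx5, which include other LIM-homeodomain genes, 0 passed, with 8 positive and 4 negative. Their median difference was 0.09, and -0.02 without control 3. Lmo1, a LIM-only protein that competes for Ldb1, had the smallest p (0.98, SE 0.16, limma, adjusted p = 0.105), and Lmo4 came next (0.42, SE 0.10).

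Calb2, whose protein calretinin is a common stain for Cajal-Retzius cells, read -3.79, -3.41 and -4.08 over controls 1 to 3, against -3.69, -3.0 and -3.63 over mutants 1 to 3. Mutant 2 lay above all controls and the other mutants lay within their range. Control 2 was the highest and control 3 the lowest control, as for Lhx1, Lhx5 and Ndnf. The difference was 0.32 (SE 0.25, 95% interval -0.30 to 0.93, limma, adjusted p = 0.551), and it was 0.10 without mutant 2. With litter as a block the SE was 0.10 and the unadjusted p 0.0357 (limma, adjusted p = 0.225). Each litter gave a positive difference (0.10, 0.41 and 0.44), which was so for 3 of the 10 genes, Calb2, Lhx1 and Ebf3. The share of all rows positive in each litter was not computed, so this count has no reference. Of its calcium-binding relatives, 0 of 4 measured passed, with Hpca, which encodes hippocalcin, at -0.57 (SE 0.19). The Calb2 probe covers 112678555 to 112678614 of chromosome 8 in mm9.

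Cxcr4, through which Cajal-Retzius cells keep to the meninges, had a difference near 0. It read -1.81, -1.59 and -1.49 over controls 1 to 3, against -1.79, -1.33 and -1.58 over mutants 1 to 3. Mutant 2 was the highest of the 6 embryos and mutant 1 lay beside control 1, the lowest. The difference was 0.06 (SE 0.15, limma, adjusted p = 0.855), with a 95% interval of -0.30 to 0.43, which leaves room for a signal between 0.81-fold and 1.34-fold that of controls. Its sign depended on the scaling, at -0.04 with median centring.

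Cxcl12, the ligand made by the meninges, read 0.70, 1.28 and 0.54 over controls 1 to 3, against 1.67, 0.80 and 0.53 over mutants 1 to 3. It was highest in mutant 1, the mutant in which Cxcr4 was lowest. The difference of Cxcl12 was 0.16 (SE 0.35), and that of Ackr3, a scavenger receptor for Cxcl12, was 0.32 (SE 0.19). The 3 measured chemokine partners included 0 that passed, with Cxcl14 closest (0.69, SE 0.24, limma, adjusted p = 0.245). Cxcr4 is also known from endothelium and from immune cells. The 10 endothelial markers had a median difference of -0.13 (0 passed), which was 0.09 without mutant 3 and -0.29 without mutant 1, and the summed level ranged from 11.9 to 14.2 in controls and from 9.29 to 14.3 in mutants, as multiples of the 75th percentile. The 7 markers of microglia and macrophages had a median of -0.30 (0 passed, all 7 negative; -0.54 without mutant 1 and -0.09 with normexp), with sums from 2.26 to 2.75 in controls and from 1.71 to 2.93 in mutants. For the 10 markers of meninges and head mesenchyme the median was 0.03 (-0.43 without mutant 1 and 0.38 without mutant 3), with sums from 20.0 to 29.7 in controls and from 14.5 to 43.5 in mutants. Such sums are led by the brightest probes of a list and do not weigh its markers equally. The part of these cell types in the values of Cxcr4 was not tested.

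Car10 gave a signal near background. It read -6.19, -7.73 and -8.89 over controls 1 to 3, against -6.21, -6.50 and -7.14 over mutants 1 to 3. Of the control arrays 1 of 3, and of the mutant arrays 2 of 3, gave a signal well above background, and the mutants lay inside the control range. The difference of 0.98 (SE 0.69, 95% interval -0.72 to 2.68, limma, adjusted p = 0.508) was 0.31 with normexp background correction and 0.26 with the authors' log2 values, so that it exceeded those of the other 9 genes with the processed signals but not in these other fits. It was 0.34 without control 3 and 1.69 without control 1. Of its relatives and neurexin partners, 0 of 8 passed. Car8 and Car11, the other carbonic anhydrase-related genes, were at 0.38 (SE 0.09) and 0.43 (SE 0.12), each with the mutants above the controls, at adjusted p-values of 0.184 and 0.199 (limma).

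Among themselves the 10 genes varied in more than one way. In controls, Lhx1, Lhx5, Ndnf and Calb2 were highest in control 2 and lowest in control 3. By contrast, Trp73, Ebf2 and Cxcr4 were highest in control 3 and lowest in control 1. Mutant 2 was the highest mutant for 5 genes (Trp73, Lhx1, Calb2, Ebf2 and Cxcr4), and mutant 1 was the lowest for 5. Taken as the median deviation of the 10 genes relative to the control mean, controls 1 to 3 stood at -0.08, 0.05 and -0.19, and mutants 1 to 3 at 0.22, 0.40 and 0.23. The median within litters 1, 2 and 3 was 0.17, 0.29 and 0.34, with 7, 8 and 7 of the 10 genes positive, and it was 0.17 within slide 1 and 0.37 within slide 2. The same medians over all rows were 0.01, 0.01 and 0.04 within the litters.

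**Figure D3:**
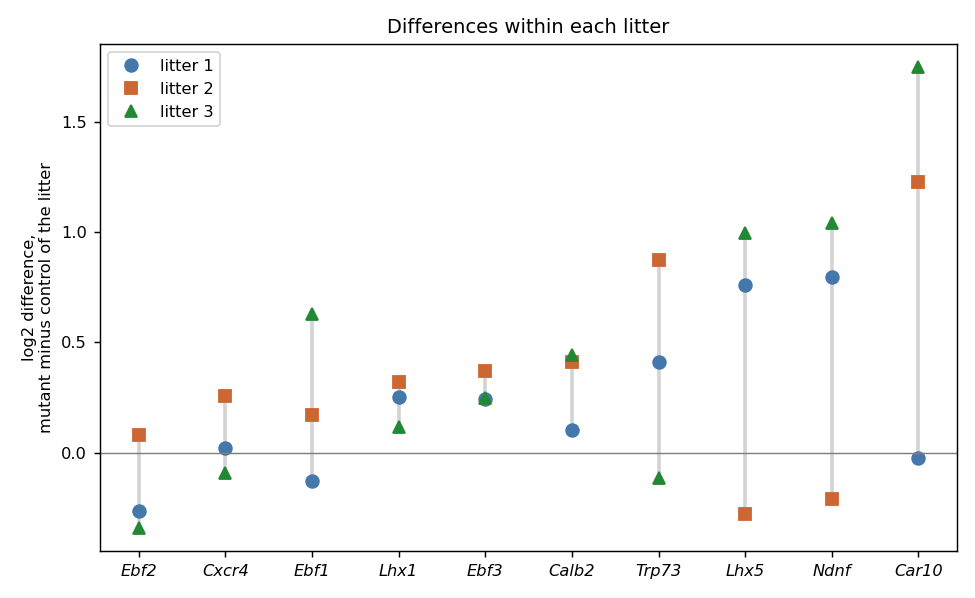
Difference between the mutant and the control of the same litter (log2 signal, 1 pair of embryos per point) for each of the 10 genes, ordered by their mean difference. Lhx1, Ebf3 and Calb2 lie above 0 in all 3 litters, while Lhx5 and Ndnf lie below 0 in litter 2 (-0.28 and -0.21) and at or above 0.76 in the others.

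Other genes of Cajal-Retzius cells gave values of similar size. Of 7 such genes 0 passed, 6 had positive differences, and the median was 0.25 (0.15 without control 2 and 0.44 without mutant 1). Reln, which encodes reelin itself, read -4.40, -4.76 and -4.49 over controls 1 to 3, against -4.67, -4.23 and -3.99 over mutants 1 to 3. Mutants 2 and 3 lay above all controls and mutant 1 lay within their range. The difference of Reln was 0.25 (SE 0.20, limma, adjusted p = 0.550). Eomes, a T-box factor that basal progenitors also express, had mutants above controls at 0.38 (SE 0.15, adjusted p = 0.293). Tbr1, a T-box factor of early glutamatergic neurons, and Slc17a6, the vesicular glutamate transporter Vglut2, were each at 0.34 (SE 0.18).

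Genes of post-mitotic neurons at large gave a median difference of 0.33, beside 0.30 for the 10 genes. The neuronal value was 0.53 without mutant 1 and 0.22 without mutant 3, so that how close the values lie depends on single embryos. Of these 16 genes 0 passed and all 16 were positive, 5 of them at an unadjusted p under 0.05. Among all rows 55.0% were positive and 9.5% were higher at that p. Their median deviation was 0.10, -0.01 and -0.12 in controls 1, 2 and 3 and 0.08, 0.45 and 0.58 in mutants 1, 2 and 3, so that mutant 1 lay within the control range. In the 10 Cajal-Retzius genes mutant 1 was at 0.22 instead, near mutant 3. The 7 other genes of Cajal-Retzius cells did not share this. Their medians were 0.004, -0.059 and 0.073 in controls 1, 2 and 3 and -0.058, 0.33 and 0.53 in mutants 1, 2 and 3. Mutant 1 thus lay within the control range there, as for the neuronal genes. Gap43, a growth cone protein, had the smallest p of the neuronal genes (0.61, SE 0.17, limma, adjusted p = 0.203), followed by Tubb3, a neuronal tubulin (0.29, SE 0.11). The part of the neuronal share of the tissue in the values of the 10 genes was not tested.

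Transcription factors that promote or restrain the Cajal-Retzius fate had a median difference of -0.18, with 4 positive and 9 negative, and 0 of 13 passed. Emx2, a homeobox factor of the medial pallium, read 1.38, 1.44 and 1.57 over controls 1 to 3, against 0.62, 0.61 and 0.39 over mutants 1 to 3 (limma, adjusted p = 0.0693). Dmrt3, a doublesex-related factor with its peak in the medial pallium, read 0.79, 0.64 and 1.07 over controls 1 to 3, against -0.19, -0.37 and -0.66 over mutants 1 to 3. Each mutant lay below each control for both genes, as in 11.9% of all rows, and the groups were apart for further genes of this list. At an unadjusted p under 0.05 (limma) 2 of the 13 were higher and 5 lower in mutants. Among all rows 16.9% stood there in either direction and 9.5% as higher. The list was chosen with earlier results of these data known. Nr2f2, a nuclear receptor of the caudal and medial telencephalon, lay above the controls in each mutant (0.77, SE 0.10).

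Markers of the cortical hem, a main source of Cajal-Retzius cells, spread widely among the mutants, and 0 of 11 passed. These 11 measured genes of the cortical hem had medians of -0.16, -0.12 and 0.29 from the control mean in controls 1, 2 and 3 and of 1.66, 0.67 and -0.70 in mutants 1, 2 and 3. Over the 9 hem genes above background on all 6 arrays, which leaves out Rspo2 and Bmp6 (above background on 1 of 3 controls), the mutant medians were 1.10, 0.62 and -0.82. The 10 Cajal-Retzius genes did not follow this order as a whole: their medians were 0.22 in mutant 1 and 0.23 in mutant 3. Trp73, Lhx1 and Car10 were lowest of the mutants in mutant 3, while Ebf1 and Ebf3 were highest there. Lhx5, Ndnf and Car10 were highest of the mutants in mutant 1, while 5 of the genes were lowest there. Over the mutants Car10, near background, had the order of the hem medians. Over controls 1 to 3 it had the reverse order, at 1.41, -0.13 and -1.29 from the control mean. The probes of Wnt3a and Wnt2b, hem signals, were well above background on 1 and 0 of the 6 arrays and were not tested. The 6 genes of the antihem and ventral pallium were all positive (0 passed), with medians of 0.20, 0.02 and -0.20 in controls and 0.10, 0.37 and 0.44 in mutants. Among them Dbx1, a homeobox factor of ventral pallial progenitors that give rise to Cajal-Retzius cells, lay above the controls in each mutant (1.22, SE 0.18, limma, adjusted p = 0.105). The part of the source regions in the values of the 10 genes was not tested.

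**Figure D4:**
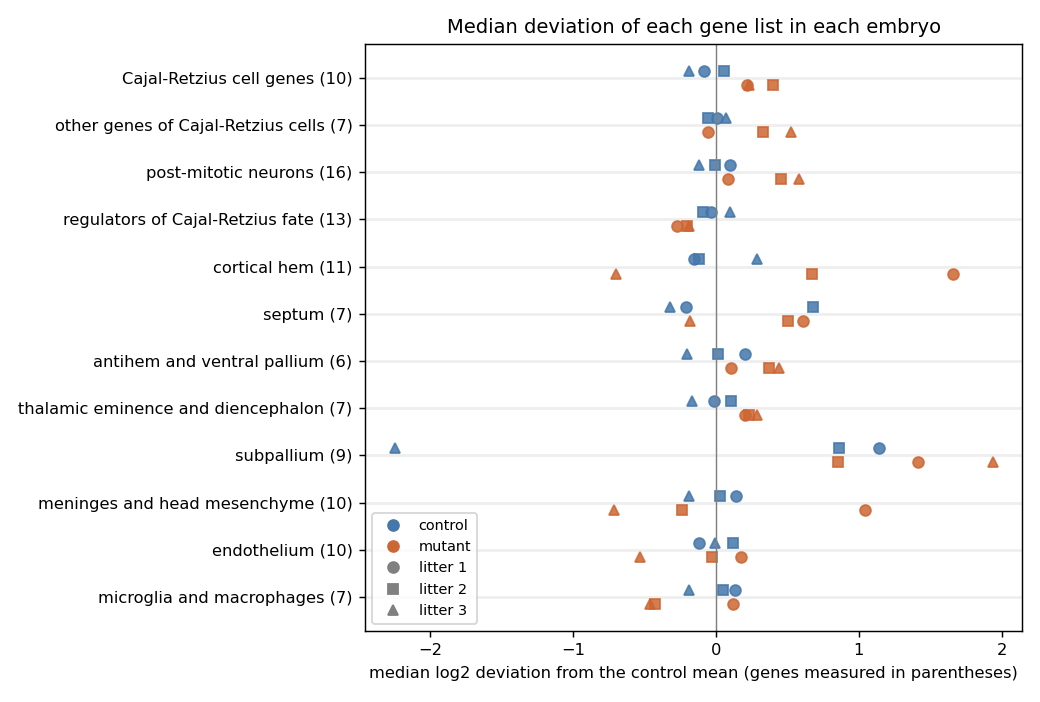
Median log2 deviation from the control mean of the 10 Cajal-Retzius genes and of 11 other gene lists, for each control (blue) and mutant (orange) embryo, with litters as symbols. The 10 genes lie between -0.19 and 0.05 in controls and between 0.22 and 0.40 in mutants, while the hem genes spread from -0.70 to 1.66 over the mutants (-0.82 to 1.10 over those above background on all 6 arrays).

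In the authors' deposited table, which comes from the same arrays, the log2 ratio was positive for 12 of the 13 probes and negative for that of Ebf2. The table gives an fdr for 8 of them, all between 0.329 and 0.967, where 3.11% of the probes with an fdr have one under 0.05. The authors' deposited table gives no fdr for Ebf3, with a log2 ratio of 0.25 and a p-value of 0.0204. For the dim probes of Ndnf and Car10 the log2 ratios in the authors' deposited table were 0.23 and 0.26, below the 0.54 and 0.98 found from the processed signals.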

How the data were processed

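Total RNA of dorsal forebrain from 6 single mouse embryos was measured on Agilent 1-colour arrays. The scanner files hold intensity on a linear scale, with each array's background already subtracted and no scaling between arrays by the authors, who used Agilent Feature Extraction 10.7.3.1 (grid build mm9), per the file headers. Other columns mark spots well above background, saturated or outlying as 0 or 1, per the file headers. In their deposited table the authors give log2 values (column medians 9.008 to 9.009), a log2 ratio, the ratio, a p-value and an fdr; the submitters' processing notes name limma without version or role. Its columns were used by group, since their numbers are not stated to be those of the embryos.

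Outlier spots were left out, spots of a probe averaged, and log2 of the processed signal scaled to the 75th percentile of the array. A probe stayed in (26849 did) if 3 or more of the 6 arrays showed it well above background, 92 probes lacked a value on an array, and the brightest probe of a gene was used. Probes were named by accession in a RefSeq table of GRCm38.p6 (26581), then by the symbols of the authors' table, and 9728 stayed unnamed. The comparison used limma 3.58.1 (lmFit, then eBayes with no trend in the variance, two-sided) under R 4.3.3, with a Benjamini-Hochberg threshold of 0.05, tested on simulated data. Tables and plots were made with pandas 2.3.3, numpy 2.4.6 and matplotlib 3.10.9 under Python 3.11.15. The embryos are separate animals, per the labels. The titles give the litter shared by a control and a mutant, so the pairing comes from the labels. The correlation of the paired embryos' deviations was 0.308, 0.357 and 0.107 in litters 1, 2 and 3. For a control and a mutant of different litters it lay between -0.41 and 0.109, a range that holds the value of litter 3. Over all genes, 7 passed without and 0 with litter as a block. Promoters are those of RefSeq (GRCm38.p6).

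The 10 genes and the lists beside them were chosen with earlier results of these data known, and lists are described by counts and medians. Named are the 10 genes, up to 3 genes of each list by smallest p, Reln, Cxcl12 and Wnt3a, and the 5 genes most alike in profile; 1 further gene of this rule is not reported here. Wnt2b falls outside this rule and was picked once its values were known. The alternatives were normexp background correction (offset 50, on median signals), quantile normalization, median centring, no filter or one on all 6 arrays, the mean of a gene's probes or every probe, litter or slide as a block, a variance trend with robust variance, the authors' log2 values and each embryo left out; slide 2 alone, and list medians over genes above background on all arrays, were added after seeing the data.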

Additional observations from a re-analysis of the deposited data

How the results depend on the processing

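None of the 10 genes passed in limma under any of the 18 alternatives, and 179 values were computed in all. Of these, 3 changed sign, all for Cxcr4: -0.036 with median centring, -0.026 without control 1 and -0.057 without mutant 2 (-0.057 to 0.173 over all fits that leave out an embryo). Litter or slide as a block, the variance trend, either change of filter and every probe as its own row repeated the differences given above. No sign could change there. Averaging probes altered only the differences of Trp73 and Lhx1. The median difference of the 10 genes, 0.30, ranged from 0.18 to 0.37 when each embryo was left out, with the lowest value without mutant 2, and stayed within the spread between control embryos (SD 0.12) under the other alternatives. Over all genes, 7 passed, and 131 with normexp background correction, 15 with quantile normalization, 21 with median centring, 0 without a filter, 23 with a filter on all 6 arrays, 2 with probes of a gene averaged, 143 with a variance trend and robust variance, and 22 with the authors' log2 values. With litter as a replicate block 0 genes passed (4181 at an unadjusted p under 0.05, against 3569 without it), and 3 of the 10 genes (Ebf3, Calb2 and Lhx1) stood at an unadjusted p under 0.05, with a smallest adjusted p of 0.176. The block changed no call among the 10 genes. With slide as a block and on slide 2 alone 0 passed (4148 and 3846 at an unadjusted p under 0.05), and from 0 to 1 when each embryo was left out (1912 to 4513). The causes were not tested. Median differences of the other lists kept within the spread between controls in 115 of 144 values. These include litter as a block, which repeats the median of each list and could not move it. For Car10, signal near background limits the size of the difference.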

Other observations

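Of 14074 named genes well above background on all 6 arrays, the 5 whose levels most resembled the mean profile of the 10 Cajal-Retzius genes over the 6 embryos were D7Ertd183e, Col9a3, H2bc21, Casp6 and Lrch3. Their Pearson correlations lay between 0.990 and 0.995 and describe 6 points that share arrays and the 2 groups, and 243 genes lay above 0.9. Col9a3, a chain of collagen IX, read -6.45, -6.24 and -6.57 over controls 1 to 3, against -6.12, -5.63 and -6.11 over mutants 1 to 3. Casp6, an effector caspase, read 0.95, 1.02 and 0.92 over controls 1 to 3, against 1.02, 1.19 and 1.04 over mutants 1 to 3. Both were lowest in control 3 and highest in mutant 2, as was the median of the 10 genes. This follows from choosing genes by likeness to the mean profile. Neither Col9a3 nor Casp6 passed in limma (adjusted p = 0.256 and 0.469).

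Pou4f1, a POU-homeodomain factor of sensory neurons and the first by p of 5 measured genes of cranial ganglia and placodes, lay above the controls in each mutant (0.35, SE 0.08, limma, adjusted p = 0.185). Of those 5 genes 0 passed, with 3 positive, 2 negative and a median of 0.17, which was -0.35 without mutant 1. Eya2, the second by p, lay below the controls in each mutant (-1.43, SE 0.51, limma, adjusted p = 0.256). Six4, the third by p, was at -0.41 (SE 0.25).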
